A study of Mus musculus with 14 samples.

Results

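The F-box protein genes examined here are the rows of the count table whose symbol starts with Fbxo, Fbxw or Fbxl and a digit, without Fbxo5 and Fbxo43. There were 75 such rows of 24064, made up of 35 Fbxo, 21 Fbxw and 19 Fbxl rows, and 1 of them, Fbxl12os, is a non-coding transcript named after its neighbour. RNA was measured in ovulated mouse oocytes, each from cDNA primed at the poly(A) tail, so that reads come mainly from the 3′ end of a transcript. Wild-type oocytes, labelled wt/wt, came from C57BL/6J females (4 oocytes). They are called wt1, wt3, wt4 and wt5 here after the numbers in their sample descriptions, whereas the names of the other oocytes come from the titles. The f/f oocyte, named C3, came from a mixed B6;129 female carrying 2 conditional Kdm1a alleles without a cre transgene. Mutant oocytes (5, named D1, D2, D3, D4 and D7) came from mixed B6;129 females with the same conditional alleles and a cre transgene under the Zp3 promoter, which acts in the growing oocyte and deletes the first exon. Titles of wt/wt libraries hold a number and the suffix R1, whereas the other titles hold the letter C or D before a number. This split is called library series here, and the titles do not say what it stands for. Within it, the title number of wt5 is lower than those of wt1, wt3 and wt4. Strain and library series therefore separate wt/wt oocytes from all others, and the f/f genotype is represented by a single oocyte name. Wherever 2 libraries carried the same oocyte name (C3, D3, D4 and D7) their counts were summed, and 14 libraries gave 5 control and 5 mutant oocytes. The sample descriptions number those libraries as separate oocytes, whereas the study's methods count 5 control and 5 mutant oocytes, as the summed names do. Nothing in the labels says which females the oocytes came from, so p-values measure the spread between these oocytes. Total counts ran from 1375187 in wt1 to 6928548 in C3, and 3 counts stood for 1.66 CPM in wt1 and 0.664 CPM in C3.

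F-box proteins are the substrate receptors of SCF ubiquitin ligases, in which the F-box motif binds the adaptor SKP1, and SKP1 in turn binds the scaffold CUL1 with its RING subunit RBX1. Fbxw proteins recognise substrates through WD40 repeats, Fbxl proteins through leucine-rich repeats, and Fbxo proteins through other domains. In the oocyte, SCF ligases are known to act in meiotic progression and in the removal of maternal proteins after fertilization, and rodents carry a cluster of Fbxw genes that are transcribed in oocytes.

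Kdm1a, which encodes the histone demethylase deleted in the mutant, was counted first. It had 38.7, 18.5, 34.7 and 12.1 CPM (counts per 1e6 of the library size scaled by its TMM factor) in wt1, wt3, wt4 and wt5, 148 in C3, and 0, 1.22, 1.42, 0.455 and 4.97 in D1, D2, D3, D4 and D7. All 5 mutants were lower than all 5 controls. Between the groups the log2 fold change (mutant over control) was -5.02 (standard error, SE, 0.86; adjusted p = 0.0011, edgeR with Benjamini-Hochberg adjustment), and it was -4.05 without C3 and -5.97 without D7. The deleted exon is at the 5′ end whereas reads come mainly from the 3′ end, so these counts are only a partial check of the deletion, and Kdm1a overlaps an antisense gene, Luzp1.

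Of the 75 F-box rows, 52 passed the filter on low counts (the top 60% of genes by total count) and 23 did not. A gene counted as called when its adjusted p was below 0.05 and its log2 fold change was 1 or more in either direction. By that rule 19 of the 52 were called (36.5%, against 25.9% of the 9198 genes tested). In the upward direction 13 were called (25%, against 14.7%), and in the downward direction 6 (11.5%, against 11.2%). The median log2 fold change was 0.32 over the 52 and 0.17 over all genes tested. The count of called members was 9 without wt1 (17.3%, against 19.3% of all genes in the same fit), 9 without wt3 (17%, against 19%), 9 without wt4 (17%, against 18.7%) and 8 without D1 (15.4%, against 17.6%). In these 4 fits the share of members called was therefore below that of all genes. Scaling by library totals alone moved the median of all genes by -0.39, and 7 members were then called higher (13.5%, against 10.5% of all genes) and 9 lower (17.3%, against 18.1%). Over all genes, 56.7% of the called genes were higher with TMM and 36.7% with library totals.

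**Figure D1:**
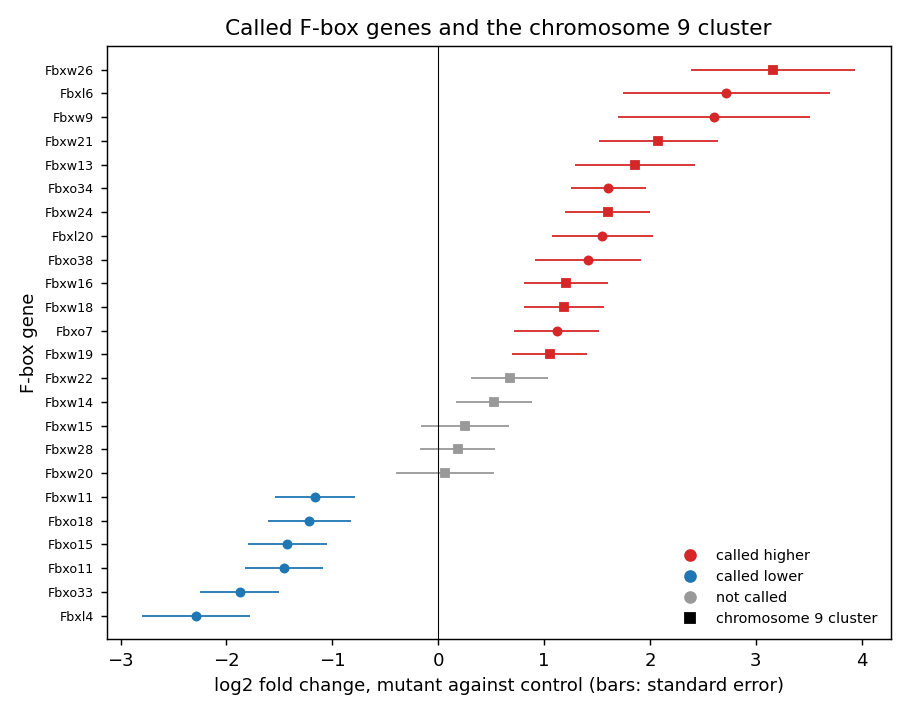
Log2 fold change, mutant over control (x axis), for the called F-box genes and for the 12 counted genes of the chromosome 9 cluster (y axis), with bars of 1 SE. Squares mark the cluster, whose 12 genes have estimates above 0 with TMM scaling, whereas with library totals alone Fbxw20, Fbxw28 and Fbxw15 fall below 0.

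A run of 12 Fbxw rows lies on chromosome 9 of GRCm38 between 109139447 and 109746089, a span of 607 kb, with every gene on the minus strand. The annotation places 14 Fbxw genes in this span, and the cluster here means the 12 with a row in the count table. In genomic order they are Fbxw21, Fbxw13, Fbxw20, Fbxw14, Fbxw28, Fbxw22, Fbxw16, Fbxw19, Fbxw15, Fbxw24, Fbxw18 and Fbxw26. All 12 passed the filter, 7 were called higher in mutant oocytes (58.3%, against 14.7% of all genes) and 0 lower, and their median log2 fold change was 1.12. Among the 40 tested members outside the cluster, 6 were called higher (15%, against 14.7% of all genes) and 6 lower (15%, against 11.2%), with a median of 0.24.

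Summed over the cluster, the level was 6628, 6743, 6809 and 10816 CPM in wt1, wt3, wt4 and wt5, 12089 in C3, and 23986, 16111, 11202, 16012 and 10676 in D1, D2, D3, D4 and D7. D1, D2 and D4 were above every control oocyte, while D3 and D7 lay within the range of the controls. The mean was 8617 ± 2628 CPM in controls and 15597 ± 5347 in mutants (n = 5 each, SD). Members outside the cluster summed to 4179 ± 953 CPM in controls and 4373 ± 439 in mutants (n = 5 each, SD). These orders depend on the scaling. Per 1e6 of library totals, without TMM, the cluster sum was 8728 to 14764 in wt/wt oocytes, 7877 in C3 and 9709 to 18695 in mutant oocytes, so that C3 was the lowest control and D2 (13145) lay below wt5. On that scale the sum outside the cluster was 4682 to 5193 in wt/wt oocytes, 3817 in C3 and 3177 to 4137 in mutant oocytes. The cluster took 63.0% to 74.1% of all F-box counts in control oocytes and 70.5% to 85.5% in mutant oocytes.

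**Figure D2:**
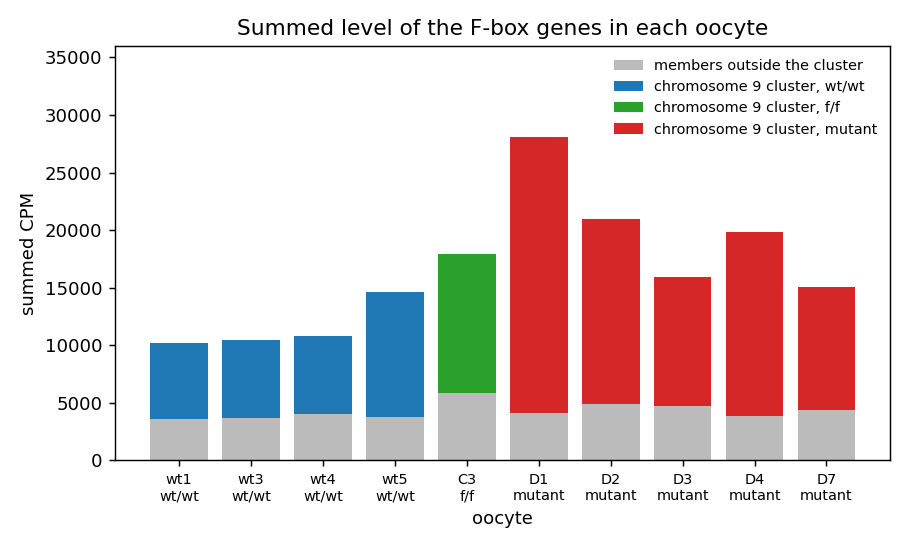
Summed CPM of the F-box genes in each oocyte (y axis), split into members outside the chromosome 9 cluster (grey) and the cluster (coloured by group). The cluster makes up the larger portion of every bar and is tallest in D1, at 23986 CPM.

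Fbxw26 had the greatest fold change of the cluster. Its level was 6.63, 12.5, 12.6 and 34.5 CPM in wt1, wt3, wt4 and wt5, 11.5 in C3, and 157, 40.1, 34.8, 447 and 14.9 in D1, D2, D3, D4 and D7. D4 and D1 were far above the rest, and D7 was below wt5, so the groups overlap. The log2 fold change was 3.16 (SE 0.78, edgeR adjusted p 0.00858). Fbxw21, at the opposite end of the cluster, had 81.2, 89.1, 92.2 and 151 CPM in wt1, wt3, wt4 and wt5, 78.0 in C3, and 621, 215, 156, 1003 and 82.6 in D1, D2, D3, D4 and D7. The same oocytes, D4 and D1, were highest and D7 again lay among the controls. The change was 2.08 on the log2 scale (SE 0.56, edgeR adjusted p 0.0135). Next to it, Fbxw13 had 5.32 to 32.7 CPM in control oocytes and 70.5, 29.2, 22.0, 104 and 24.9 in D1, D2, D3, D4 and D7, with a log2 fold change of 1.86 (SE 0.56, edgeR adjusted p 0.0243).

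Fbxw24 combined a high level with a called difference. It had 1098, 1287, 1274 and 1906 CPM in wt1, wt3, wt4 and wt5, 1791 in C3, and 7248, 4556, 2946, 5632 and 1916 in D1, D2, D3, D4 and D7. With TMM every mutant oocyte was above every control oocyte, although D7 exceeded wt5 only narrowly. Over library totals the groups overlapped, with D7 below wt5. The log2 fold change was 1.60 (SE 0.40, edgeR adjusted p 0.00936). With TMM the groups were also separate for Fbxw19. It had 856, 653, 655, 1229 and 1090 CPM in wt1, wt3, wt4, wt5 and C3 and 3016, 1940, 1465, 1560 and 1329 in D1, D2, D3, D4 and D7. Its log2 fold change was 1.05 (SE 0.35, edgeR adjusted p 0.037). Over library totals the Fbxw19 groups overlapped as well, with D7 below wt5. Fbxw16 (log2 fold change 1.21, SE 0.39, adjusted p = 0.0327) and Fbxw18 (1.19, SE 0.38, adjusted p = 0.0293) were called with overlapping groups. With TMM, 8.1% of all genes tested had every mutant oocyte above every control oocyte, and in the cluster 2 of 12 did.

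The calls of Fbxw21, Fbxw24 and Fbxw26 held with each oocyte left out in turn. Fbxw13 and Fbxw16 were not called without wt1, wt3, wt4, D1 or D4, and Fbxw18 and Fbxw19 were not called without wt1, wt3, wt4, D1 or D2. Hence 3 of the 12 genes (25%) were called without wt1, wt3, wt4 or D1, against 19.3%, 19%, 18.7% and 17.6% of all genes in those fits. With library totals as scaling 3 were called as well, against 28.6% of all genes. Without D4 the log2 fold change of Fbxw26 was 2.00 and that of Fbxw21 was 1.46, and without wt5 that of Fbxw13 was 2.48.

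Fbxw28, Fbxw14 and Fbxw22 were abundant and not called. Fbxw28 had 2311 ± 807 CPM in controls and 2629 ± 765 in mutants (n = 5 each, SD), which is 0.19 on the log2 scale (SE 0.35). For Fbxw14 the values were 1858 ± 668 and 2681 ± 825 CPM and 0.53 (SE 0.36). Fbxw22 had 944 ± 224 CPM in wt/wt oocytes (SD, n = 4), 2037 in C3 and 1856 ± 434 in mutant oocytes (SD, n = 5), so that the f/f oocyte lay with the mutants. Over library totals C3 (1327) was instead within the wt/wt range (1051 to 1747). Fbxw15 had 168 ± 44.99 CPM in controls and 200.5 ± 127 in mutants, and Fbxw20 94.5 ± 30.2 and 98.4 ± 71.9 (SD, n = 5 each). In both, D1 and D4 were above every control oocyte and D3 and D7 were below every control oocyte.

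**Figure D3:**
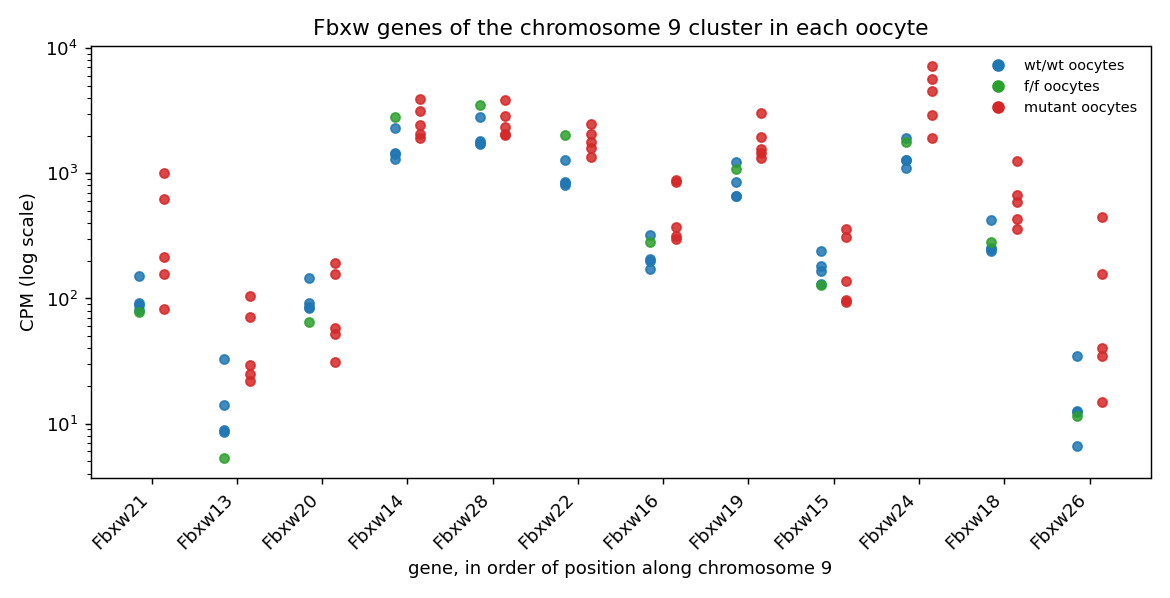
CPM of each gene of the chromosome 9 cluster (y axis, log scale) in order of position (x axis), with 1 point per oocyte coloured by group. Fbxw28, Fbxw14 and Fbxw24 are at 1098 CPM or more in every oocyte, and Fbxw26 and Fbxw13 reach 447 and 104 CPM in D4.

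Copies in the cluster resemble each other, and the authors kept unique alignments only, so each single-gene level here is uncertain. Over the 66 pairs of coding sequences the identity of bases aligned without a gap was 80.1% to 99.1%, with a median of 84.4%. Fbxw14 and Fbxw28 were the pair at 99.1%, and 62.1% of the 49-base words in the last 3 kb of Fbxw28 transcripts also occur in another gene. The share was 59.5% for Fbxw14, 22.2% for Fbxw16, 16.3% for Fbxw15, 11.2% for Fbxw26 and for Fbxw22 and 9.49% for Fbxw13. It was 8.14% for Fbxw21, 7.55% for Fbxw18, 6.75% for Fbxw19, 6.26% for Fbxw20 and 6.11% for Fbxw24. The summed level of Fbxw14 and Fbxw28 was 4169 ± 1473 CPM in controls and 5310 ± 1583 in mutants (n = 5 each, SD). Reads that fit both copies alike were not kept, so this sum lacks them as well.

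The promoters of the cluster are alike as well. RefSeq (GRCm38.p6) gave a promoter for 10 of the 12 genes, and the 250 bases before the start were aligned over their 45 pairs. Identity was 84.3% to 97.3% of the 205 to 249 bases that aligned without a gap. The letters CAGCTG, picked after the sequences had been read and the same on both strands, occur in all 10 of those windows, against 12.8% of 27025 promoters and 19.1% of the 47 available for members outside the cluster. The 10 windows are near-copies of each other, so counts over them are not independent occurrences. CAGCTG is a form of the E-box CANNTG, which occurs in 66% of all promoters. TAATTG, the core letters of the NOBOX element, was searched on both strands and occurs in 0 of the 10, in 4.26% of the 47 and in 7.34% of all promoters. TATAAA, the TATA box letters, was searched in the same way and occurs in 0 of the 10, in 0 of the 47 and in 13% of all promoters. The first CAGCTG lay 80 bases before the start in Fbxw20, 125 in Fbxw19, 139 in Fbxw18 and 96 to 101 in the rest. Called and uncalled genes of the cluster thus share these letters. The 150 bases before the start are shown for 3 called genes and an uncalled gene, each on the minus strand with CAGCTG in capitals. They lie at chr9:109746090-109746239 for Fbxw26, chr9:109162023-109162172 for Fbxw21, chr9:109626060-109626209 for Fbxw24 and chr9:109339660-109339809 for Fbxw28.
Fbxw26: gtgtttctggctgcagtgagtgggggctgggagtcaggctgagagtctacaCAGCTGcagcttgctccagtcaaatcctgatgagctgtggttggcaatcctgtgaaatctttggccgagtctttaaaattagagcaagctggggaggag
Fbxw21: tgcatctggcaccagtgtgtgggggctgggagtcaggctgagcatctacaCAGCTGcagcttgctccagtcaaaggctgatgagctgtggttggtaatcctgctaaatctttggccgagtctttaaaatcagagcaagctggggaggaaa
Fbxw24: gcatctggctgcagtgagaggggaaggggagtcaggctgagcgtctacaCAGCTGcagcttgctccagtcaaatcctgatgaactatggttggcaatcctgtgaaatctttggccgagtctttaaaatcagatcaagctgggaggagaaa
Fbxw28: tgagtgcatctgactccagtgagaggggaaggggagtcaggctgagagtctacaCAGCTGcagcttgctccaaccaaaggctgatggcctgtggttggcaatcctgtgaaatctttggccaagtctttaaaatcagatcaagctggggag

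Per kb of exon, cluster genes held 7 of the 8 highest places in control oocytes. Fbxw28 had 1185 ± 414 CPM per kb, Fbxw24 989 ± 239, Fbxw14 879 ± 316, Fbxw22 634 ± 287, Fbxw19 257 ± 74.2, Fbxw18 191 ± 50.7, Fbxo11 151 ± 17.5 and Fbxw16 131 ± 34.8 (SD, n = 5 each). Fbxw28, Fbxw24 and Fbxw14 lay within their spread of each other. Reads that fit Fbxw28 and Fbxw14 alike were not kept, so the levels of these genes may be too low. Since reads come mainly from the 3′ end, full exon length lowers the level of long genes. With length capped at 3 kb, Fbxo11 had 221 CPM per kb and took place 6 before Fbxw18, Fbxo8 took place 8 with 189, and Fbxw16 took place 10. In mutant oocytes Fbxw24 was highest at 2997 ± 1422 CPM per kb, and Fbxo11 took place 14 with 55.2 ± 27.7.

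Of the 35 Fbxo rows 21 were tested, with 3 called higher (14.3%, against 14.7% of all genes) and 4 lower (19%, against 11.2%). Fbxo34, an F-box gene of little known substrate range, had 443, 195, 375 and 449 CPM in wt1, wt3, wt4 and wt5, 672 in C3, and 1288, 1607, 1196, 1320 and 1090 in D1, D2, D3, D4 and D7. The mutant oocytes were close to each other and all above the controls. The change was 1.61 on the log2 scale (SE 0.36, edgeR adjusted p 0.00496). Fbxo7, which takes part in mitophagy and binds a proteasome regulator, had 11.7 ± 3.11 CPM in controls and 25.5 ± 7.91 in mutants (n = 5 each, SD). With TMM its groups did not overlap, whereas over library totals D7 was below wt5. Its log2 fold change was 1.12 (SE 0.40, edgeR adjusted p 0.0493), and it was not called without wt1, wt3, wt4, C3, D1, D2, D3 or D4.

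Fbxo33, a receptor for the RNA-binding protein YB-1, had 211, 396, 304 and 404 CPM in wt1, wt3, wt4 and wt5, 241 in C3, and 43.7, 69.3, 131, 109 and 70.1 in D1, D2, D3, D4 and D7. No mutant oocyte reached the lowest control. The log2 fold change was -1.87 (SE 0.37, edgeR adjusted p 0.00257). Fbxo11, known for the turnover of BCL6, had 569, 681, 775, 621 and 674 CPM in wt1, wt3, wt4, wt5 and C3 and 144, 209.7, 322, 126 and 412 in D1, D2, D3, D4 and D7. The control oocytes were tightly grouped and all above the mutants. The change was -1.45 on the log2 scale (SE 0.37, edgeR adjusted p 0.0102). Fbxo15, a gene expressed in pluripotent cells and early embryos, had 96.1 ± 23.2 CPM in controls and 35.6 ± 14.5 in mutants (n = 5 each, SD), again without overlap. Its log2 fold change was -1.42 (SE 0.37, edgeR adjusted p 0.0118). The calls of Fbxo33, Fbxo11, Fbxo15 and Fbxo34 held with each oocyte left out.

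Fbxo38 (log2 fold change 1.42) and Fbxo18, whose product is the DNA helicase FBH1 (log2 fold change -1.22), were also called, with overlapping groups. The call of Fbxo38 was lost without wt1, wt3, wt4, C3, D1, D3 or D4, and that of Fbxo18 without wt3, wt4, D1, D3, D4 or D7. They are named, like Fbxo21 and Fbxo8, after their values had been seen. Fbxo21 had 42.8 ± 19.6 CPM in wt/wt oocytes (SD, n = 4), 237 in C3 and 132 ± 41.7 in mutant oocytes (SD, n = 5), so that C3 was above every mutant oocyte, whereas over library totals it was below D7. Fbxo8 had 566 ± 166 CPM in controls and 282 ± 118 in mutants (n = 5 each, SD), an adjusted p of 0.051 from edgeR, and was not called. Fbxo11 and Fbxo15 overlap antisense genes, Msh6 and Timm21, and reads of the overlap cannot be assigned with certainty.

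Of the 19 Fbxl rows 11 were tested, with 2 called higher (18.2%, against 14.7% of all genes) and 1 lower (9.09%, against 11.2%). Fbxl4, whose product sits at mitochondria and restrains mitophagy, had 67.9, 52.1, 84.0 and 45.2 CPM in wt1, wt3, wt4 and wt5, 52.1 in C3, and 3.83, 2.43, 17.8, 17.1 and 19.4 in D1, D2, D3, D4 and D7. All mutant oocytes were below all controls. The change was -2.29 on the log2 scale (SE 0.51, edgeR adjusted p 0.00514), the largest fall among the members, and its call held with each oocyte left out. Fbxl4 also differed between libraries of the same oocyte. Per 1e6 of each library's total, C3 had 48.6 in the library of suffix DNA and 18.8 in the other. Mutant libraries had 20.7 to 28.4 with that suffix and 1.98 to 12.6 without it. The wt/wt oocytes, at 61.7 to 109, had no library of that suffix, and neither had D1 and D2. Over all genes tested, 8.09% had every mutant oocyte below every control, and 4 of the 52 members did.

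Fbxl6 and Fbxl20, named after their values had been seen, were called higher, but C3 lay with the mutants or, for Fbxl20 over library totals, between them and the wt/wt oocytes. Fbxl6 had 14.9, 5.17, 8.97 and 2.24 CPM in wt1, wt3, wt4 and wt5, 215 in C3, and 475, 682, 143, 76.6 and 273 in D1, D2, D3, D4 and D7. The f/f oocyte was above D3 and D4 and far above every wt/wt oocyte. For Fbxl20 the values were 65.2 ± 18.8 CPM in wt/wt oocytes (SD, n = 4), 284 in C3 and 319.7 ± 106 in mutant oocytes (SD, n = 5). The log2 fold changes were 2.72 (SE 0.98, adjusted p = 0.0491) and 1.55 (SE 0.48, adjusted p = 0.0262), both from edgeR. The call of Fbxl6 was lost without wt1, wt3, wt4, wt5, D1, D2, D3 or D7, and that of Fbxl20 without wt1, wt3, wt4 or D1. Without C3 the log2 fold changes were 5.47 and 2.33. Genotype, strain and library series cannot be told apart in these values. Fbxl2, a receptor that is anchored in membranes by a lipid group, had 207 ± 38.3 CPM in wt/wt oocytes (SD, n = 4), 742 in C3 and 283 ± 102 in mutant oocytes (SD, n = 5), and was not called.

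Fbxl5, the iron-sensing receptor that targets the iron regulatory protein IREB2, had 294 ± 49.2 and 217 ± 113 CPM (SD, n = 5 each), with a log2 fold change of -0.44 (SE 0.38), and was not called.

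Of the 9 Fbxw rows outside the cluster 8 were tested, with 1 called higher and 1 lower (12.5% each, against 14.7% and 11.2% of all genes). Fbxw11, a β-TrCP receptor for phosphorylated substrates such as β-catenin, had 87.8, 81.8, 95.0 and 152 CPM in wt1, wt3, wt4 and wt5, 41.6 in C3, and 32.3, 29.8, 55.8, 42.5 and 43.3 in D1, D2, D3, D4 and D7. The wt/wt oocytes were above all others, and C3 lay among the mutants. The log2 fold change was -1.17 (SE 0.38, edgeR adjusted p 0.0316), and the call was lost without wt1, wt4, wt5, D1, D2 or D7. Against C3 alone the log2 fold change of Fbxw11 was -0.01. Fbxw9 was low, with 0, 0, 0 and 1.79 CPM in wt1, wt3, wt4 and wt5, 2.21 in C3 and 2.73 to 8.18 in mutant oocytes. Fbxw9 overlaps an antisense gene, A230103J11Rik, and the strand setting of the counting is not given in the sources used here. Its call (log2 fold change 2.61, SE 0.90, adjusted p = 0.0424 from edgeR) was lost without wt1, wt3, wt4, D1, D2, D3 or D4, and without C3 the log2 fold change was 3.48. Fbxw7, the receptor for cyclin E, MYC and Notch, had 8.53 ± 3.78 CPM in wt/wt oocytes (SD, n = 4), 33.9 in C3 and 17.7 ± 5.95 in mutant oocytes (SD, n = 5), with a log2 fold change of 0.37 that became 1.07 without C3. Fbxw8, the partner of CUL7, had at most 8.16 CPM, and neither was called.

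Also tested and not called were Fbxl7, Fbxl12, Fbxl14, Fbxl17, Fbxl22, Fbxo3, Fbxo9, Fbxo10, Fbxo17, Fbxo22, Fbxo25, Fbxo28, Fbxo30, Fbxo32, Fbxo36, Fbxo42, Fbxo45, Fbxw2, Fbxw4, Fbxw5 and Fbxw17, with log2 fold changes from -1.37 for Fbxo32 to 1.37 for Fbxw2. The 23 members that did not pass the filter had 0 to 34 counts in all oocytes together. Fbxl15, Fbxo2, Fbxo24, Fbxo39, Fbxo40, Fbxo44 and Fbxo48 had 0 counts in every oocyte. The others were Fbxl12os, Fbxl13, Fbxl16, Fbxl18, Fbxl19, Fbxl21, Fbxl8, Fbxo16, Fbxo27, Fbxo31, Fbxo4, Fbxo41, Fbxo46, Fbxo47, Fbxo6 and Fbxw10.

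On 5 lists of partners of F-box proteins and F-box genes known by other symbols, 15 of the 39 tested genes were called, 9 higher and 6 lower (38.5%, against 25.9% of all genes). The count was 8 without wt3 (20.5%, against 19% of all genes in that fit), 8 without wt4 (20.5%, against 18.7%), 8 without D1 (20%, against 17.6%) and 9 without D4 (22.5%, against 22.1%). In the SCF core 1 of 5 tested genes was called (20%). Skp1a, which encodes the adaptor SKP1 of SCF ligases, had 79.0, 134, 51.0 and 249.7 CPM in wt1, wt3, wt4 and wt5, 243 in C3, and 1267, 1048, 937, 3369 and 601 in D1, D2, D3, D4 and D7. All mutant oocytes were above all controls, with D4 highest. The log2 fold change was 3.25 (SE 0.55, edgeR adjusted p 0.00104). The scaffold Cul1 had 4167 ± 1465 CPM in controls and 3682 ± 1292 in mutants, and the RING subunit Rbx1 337 ± 106 and 242 ± 52.1 (SD, n = 5 each). Neither was called.

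The list of neddylation and exchange holds genes that attach and remove NEDD8, the modifier that activates cullins, along with Cand1, Cand2 and Glmn. Its genes were called in both directions, with 4 of 14 higher (28.6%, against 14.7% of all genes) and 4 lower (28.6%, against 11.2%). Nedd8 itself (log2 fold change 1.39), Nae1 of the activating enzyme (1.24), the conjugating enzyme Ube2m (3.57, at 13.7 CPM or less in every oocyte) and the exchange factor Cand2 (1.73) were higher. For Nae1, C3 at 747 CPM lay with the mutants (690 to 1119) and apart from the wt/wt oocytes (266 ± 64.8, SD, n = 4), and against C3 alone its log2 fold change was 0.23. Over library totals C3 (487) lay between the wt/wt (262 to 441) and mutant oocytes (589 to 970). Uba3, the catalytic partner of Nae1, was lower (log2 fold change -1.12), as were the ligase cofactors Dcun1d2 (-1.82) and Dcun1d5 (-1.85) and the protease Senp8 (-1.35). Dcun1d2 had 83.2 ± 17.6 CPM in controls and 23.5 ± 4.32 in mutants (n = 5 each, SD) without overlap. Of the COP9 signalosome, which removes NEDD8 from cullins, 3 of 8 tested genes were called higher, Cops3 (log2 fold change 2.45), Cops7a (2.23) and Cops7b (2.96, at 0.861 CPM or less in every control and 5.16 or less in every mutant oocyte), and 0 lower (37.5% higher, against 14.7% of all genes). Among the ubiquitin-conjugating enzymes, Ube2g1 was higher (log2 fold change 3.59) and Ube2d2a lower (-1.07). Several of these calls were lost with 1 oocyte left out: Nedd8 and Ube2d2a without wt1, wt3, wt4, C3, D1, D2 or D4 (Nedd8 also without D3), Nae1 without wt1, wt3, wt4 or wt5, and Cand2 without wt1, wt3, wt4, D1 or D2. Uba3 was not called without wt3, wt4, D1, D2, D4 or D7, Senp8 without wt3, wt4, D1, D2 or D4, Ube2m without D1 (log2 fold change 2.75) and Cops7a without D4 (1.43). The log2 fold change of Nedd8 was 2.16 without wt5 and that of Ube2g1 4.87 without C3. Nedd8, Cops3 and Cand2 overlap antisense genes, Gmpr2, Nt5m and Rpl32.

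F-box genes known by other symbols gave 1 call of 5 tested (20%, against 25.9% of all genes). Skp2, the receptor for the cell cycle inhibitor p27, had 37.0, 68.0, 64.9, 35.8 and 49.8 CPM in wt1, wt3, wt4, wt5 and C3 and 7.65, 26.1, 20.3, 7.13 and 31.8 in D1, D2, D3, D4 and D7. The groups did not overlap, and the log2 fold change was -1.47 (SE 0.46, edgeR adjusted p 0.0272), a call lost without wt3, wt4, D1 or D4. Skp2 overlaps an antisense gene, Lmbrd2. Btrc, the paralog of Fbxw11, had 10.7 ± 2.03 and 9.80 ± 7.19 CPM (SD, n = 5 each) and was not called. Ccnf, which encodes cyclin F, had at most 3.04 CPM and was not tested. On the list of 20 substrates, 14 were tested, 2 called higher and 1 lower (14.3% and 7.14%, against 14.7% and 11.2% of all genes). They were Cdc25b (log2 fold change 3.76, overlapped by the antisense gene Spef1), Cdkn1b, which encodes p27 (1.62), and Ireb2 (-2.34).

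Of 15 oocyte markers, 10 were called higher in mutant oocytes (66.7%, against 14.7% of all genes) and 0 lower, with a median log2 fold change of 2.27. Levels differed widely between markers, with Figla at 0.886 CPM or less in every control oocyte. Their summed level, mostly from Gdf9, Bmp15 and Oosp1 in wt/wt oocytes, was 25192 ± 7319 CPM in wt/wt oocytes (SD, n = 4), 62366 in C3 and 84452 ± 26001 in mutant oocytes (SD, n = 5), and over library totals C3 (40638) lay within the wt/wt range (27665 to 49323). Its part in the levels of the Fbxw cluster was not tested. Of 15 cumulus and granulosa markers 8 had a count and 3 were tested. Their summed level was 79.5, 41.3, 56.7 and 20.6 CPM in wt1, wt3, wt4 and wt5, 71.1 in C3, and 93.5, 85.7, 157, 120.2 and 113 in D1, D2, D3, D4 and D7. With TMM every mutant oocyte was above every control oocyte in this sum, whereas over library totals D1 and D2 were below wt1. The most abundant was Cyp19a1, called higher (log2 fold change 1.48). The higher sum rests on this gene. Without it the sum was 8.42 to 26.5 CPM in control and 6.69 to 9.95 CPM in mutant oocytes. The other tested markers, Nr5a2 (log2 fold change -1.60) and Kitl (-0.34), had estimates below 0 and were not called. Amh, Foxl2, Fshr, Inha, Inhba, Ptx3 and Tnfaip6 had 0 counts in every oocyte.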

How the data were processed

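Single ovulated oocytes were sequenced as single-end reads of 49 bases. The authors aligned filtered reads to mm10 with TopHat2 2.0.6, kept unique best alignments and deposited raw counts per gene made with HTSeq, without normalization. The version of HTSeq is 0.5.3p9 in the submitters' processing notes. A column named with the letters of C3 in another order was taken as that oocyte. Libraries of a shared oocyte name were summed. From these counts, genes with a count were ranked by total, the top 60% were kept (9198 of 15432), and the 2 arms were tested by edgeR 4.0.16 under R 4.3.3 (TMM, glmQLFit, glmQLFTest, Benjamini-Hochberg over all genes kept). Library sizes were totals over all genes with a count. CPM values are over TMM-scaled library sizes, and log2 CPM used a prior count of 2. Exon lengths and positions came from GENCODE vM21, and Fbxo18 was matched there through its synonym Fbh1. Shared words were looked for in transcripts only, without mismatches. The procedure was run on simulated counts with the same dispersion for all genes. Those counts held no difference of strain or library series, so the run cannot speak to these. Alternatives were DESeq2 1.42.0, upper-quartile scaling, library totals alone, no filter, filterByExpr, an adjusted p alone, every library as its own sample, libraries with the suffix DNA left out, wt/wt or f/f oocytes alone as control, thinned counts, each oocyte left out, and exon length capped at 3 kb. Library totals over the genes kept, and the number in the oocyte name as a block, were alternatives chosen after seeing the data. Named genes were all tested cluster genes, up to 8 called members per direction of smallest p with separate groups, the 8 highest per kb, 8 of known role, called partner genes with Skp1a, Cul1, Rbx1, Skp2, Btrc and Ccnf, and Kdm1a. The members and lists were chosen with earlier results of these data known. Intervals between oocytes are SDs, and values at or under 3 counts are near the detection limit. Values of a member withheld for evaluation are not reported here singly.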

Additional observations from a re-analysis of the deposited data

Results flagged for a closer look

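Within wt/wt oocytes (n = 4), all controls (n = 5) or mutants (n = 5), 147 groups of values were examined for an oocyte whose gap to its neighbour as a share of the group's range exceeded Dixon's 95% critical value. This was so in 22, where chance gives about 1 in 20 for values without ties, and groups that share oocytes or near-identical genes are not independent.

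Oocyte wt5 was highest among wt/wt oocytes for the summed CPM of the chromosome 9 cluster (gap 0.957 of the range), Fbxw28 (0.888), Fbxw22 (0.909), Fbxw18 (0.894), Fbxw9 (1), Nedd8 (0.875), Dcun1d5 (0.944) and Ccnf (1), and lowest for Ube2d2a (0.864). Among all controls it was highest for Fbxw21 (0.746), Fbxw18 (0.723), Nedd8 (0.808) and Ccnf (1). For Fbxw9 and Ccnf the other oocytes of these groups had 0 counts, which fixes the ratio at 1. At 1.79 and 2.69 CPM in wt5, these 2 genes were near the detection limit, and the critical value does not apply to such ties. Oocyte wt1 was lowest for Fbxl5 among wt/wt oocytes (0.910) and for Rbx1 among all controls (0.729).

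The f/f oocyte C3 was highest among controls for total counts (0.907), Fbxl2 (0.724) and the summed CPM of members outside the cluster (0.803). Over library totals without TMM that sum was lowest among controls in C3, at 3817. Among mutant oocytes, D4 was highest for total counts (0.750), D3 for Uba3 (0.776) and Dcun1d5 (0.800), and D1 for Ube2m (0.8294). The totals of C3 and D4 are sums of 2 libraries, as are those of D3 and D7, and the others come from 1. What else sets these oocytes apart was not tested.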

How the results depend on the processing

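No call of the named genes changed direction under any alternative. The count of 19 called F-box genes was 16 to 20 with the other test, scalings, filters, call rule and library choices run, apart from the f/f oocyte alone as control, where 0 F-box genes, 0 of the cluster and 0 of the partner genes were called by edgeR. The share of F-box genes called was 36.5% against 25.9% of all genes as reported, 36.5% against 30.9% with DESeq2, 35.8% against 31.5% with wt/wt oocytes alone as control and 30.8% against 28.6% with library totals alone. The f/f setting has 1 control oocyte, and 3 genes were called in all. The 7 called cluster genes became 3 with library totals alone. With each oocyte left out in turn, the count was 8 to 19 for the F-box genes, 3 to 7 for the cluster and 8 to 16 for the partner genes, and the log2 fold change of Kdm1a was -5.97 to -4.05. With library totals over the genes kept, chosen after seeing the data, the counts were again 19, 7 and 15, and 1031 genes in place of 1032 were called lower. Among 44 named genes, calls were lost for 8 with library totals alone, 3 without a filter, 3 with wt/wt oocytes alone as control, 2 with upper-quartile scaling, 1 with every library as its own sample, 1 without the libraries of suffix DNA, 0 with DESeq2, filterByExpr (40 genes), thinning or adjusted p alone, and 30 of 43 with the f/f oocyte alone. Of the 8 genes with the highest level per kb, 7 were among the highest 8 with exon length capped at 3 kb. The numbers of the sample descriptions could not be used as a block, because summed oocytes carry 2 of them. The numbers 1, 3 and 4 occur in the oocyte names of both arms. For wt/wt oocytes they come from the sample descriptions and for the other oocytes from the titles, so they mark no pairing in the labels. Same-numbered oocytes did not deviate together from their arm means (correlations -0.12 to 0.05). A block on the number in the oocyte name over these 7 oocytes, chosen after seeing the data, therefore stands for no replicate in the labels. With it, 8 F-box genes (15.4%), 4 of the cluster (33.3%) and 7 partner genes (17.9%) were called, against 11.9% of all genes. In the same 7 oocytes without the block the counts were 13 (25%), 7 (58.3%) and 10 (25.6%), against 20.8%. The 23 members below the filter were not tested, and with counts thinned to the lowest total 52 members were again tested. A single f/f oocyte leaves strain, library series and genotype confounded, and the cause of each lost call was not tested.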

Other observations

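Plxnb1 and Spink8 are the nearest coding genes of the count table on either side of the chromosome 9 cluster. They were picked by position after the data had been seen. Plxnb1, which lies 19529 bases before it, had 6.75 ± 2.74 CPM in controls and 6.89 ± 3.63 in mutants (n = 5 each, SD) and was not called. Spink8, 66190 bases after it, was at 0 in 4 control oocytes and at 0.448 CPM in wt5, and had 3.83, 5.47, 2.13, 2.12 and 1.99 CPM in D1, D2, D3, D4 and D7. All mutant oocytes were above all controls at this low level, and edgeR called Spink8 higher (adjusted p = 0.00619).

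In the oocytes with 2 libraries, values over each library's own total are given with the library of suffix DNA first. Fbxw26 had 406 and 441 counts per 1e6 in D4, 32.3 and 29.4 in D3, 13.2 and 14.8 in D7, and 10.5 and 4.40 in C3. Fbxl6 had 94.9 and 187 in C3, 81.8 and 141 in D3, 51.8 and 90.9 in D4, and 188 and 316 in D7, lower in the library of suffix DNA each time. Fbxl4 was higher in that library each time, with 48.6 and 18.8 in C3, 24.8 and 11.7 in D3, 20.7 and 12.6 in D4, and 28.4 and 9.57 in D7.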
